A study of Mus musculus with 14 samples.

Results

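Aminoacyl-tRNA synthetases are the enzymes that join each amino acid to its tRNA. The 35 genes described here were taken from a list of member symbols matched exactly to the gene names of the deposited count table, and all 35 were found among its 23412 genes. Of these, 20 encode cytosolic enzymes and 15 encode mitochondrial enzymes. Expression was measured in the cerebral cortex of mice by RNA-seq and by ribosome profiling, which reads the pieces of mRNA left under ribosomes after nuclease digestion (footprints). Control mice carried the genotype Rpl22flox/flox;CamKCre+, and knock-out (KO) mice carried Fmr1X-Y together with the same floxed Rpl22 allele and the same CamK-driven Cre. Both groups therefore share a Cre that acts in CamK-expressing neurons and a ribosomal protein allele that it recombines, and no group without them was measured. The protocols name no pull-down of tagged ribosomes, so the libraries were taken as whole cortex. The age of the mice is not given in the sources used here. RNA came from control mice 1, 3, 6 and 8 and KO mice 2, 4, 5 and 7, and footprints from control mice 1, 3 and 9 and KO mice 2, 4 and 10.

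As a rule a synthetase recognises a single amino acid and the tRNAs that carry it, and the ribosome then uses the charged tRNA. Separate nuclear genes encode most of the mitochondrial enzymes, which are made on cytosolic ribosomes and imported to serve the mitochondrion's own translation. Gars and Kars, listed here as cytosolic, each encode both forms. A group of cytosolic enzymes is held together in the multisynthetase complex by the scaffold proteins Aimp1, Aimp2 and Eef1e1. Many cytosolic synthetase genes are known targets of ATF4, the transcription factor of the amino acid and integrated stress response. Fmr1 encodes FMRP, an RNA-binding protein that associates with ribosomes and restrains translation of many brain mRNAs, and its loss causes fragile X syndrome. The comparison asks how RNA, footprints and footprints relative to RNA differ between the genotypes.

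Total counts were 8847547 to 11371851 per RNA library and 4124065 to 6033030 per footprint library. Levels are given as CPM, the count of a gene relative to the library total after scaling with TMM factors. They are not corrected for transcript length, so the levels of different genes are not compared. All 35 synthetase genes passed the filter on low counts in both assays. Fmr1 itself lay at 71.4 to 90.0 CPM in control RNA and 18.1 to 23.4 CPM in KO RNA, and at 111 to 115 CPM in control footprints and 5.84 to 8.56 CPM in KO footprints. The summed level of 8 excitatory neuron markers was 2550 to 2822 CPM in control RNA and 3191 to 3461 CPM in KO RNA, but it overlapped in footprints, at 5633 to 5777 CPM in control and 5430 to 5698 CPM in KO. Of these 8 markers edgeR called 2 higher (Slc17a7 and Camk2a) and 0 lower in RNA, against 7.41% of all genes called. Mean Slc17a7 RNA was 1447 CPM in control and 1660 CPM in KO, and mean Camk2a RNA 467 and 786 CPM. In footprints it called 3 higher (Slc17a7, Nrgn and Neurod6) and 1 lower (Camk2a), against 11.9% and 13.6% of all genes. The summed level of 8 oligodendrocyte markers was 5224 to 5749 CPM in control RNA and 4666 to 4977 CPM in KO RNA. In footprints this sum was 8873 to 9029.7 CPM in control and 8751 to 8800.0 CPM in KO. Footprint sums of microglia markers (508 to 533 CPM in control, 492 to 505 CPM in KO) and inhibitory neuron markers (1647 to 1693 and 1721 to 1749 CPM) did not overlap either. The markers within these lists did not all move with their sum. In footprints edgeR called 3 oligodendrocyte markers higher (Mal, Mobp and Cldn11) and 3 lower (Mbp, Mag and Cnp). It called 3 inhibitory markers higher (Sst, Pvalb and Vip) and 1 lower (Gad2). This is 75% and 50% of the lists, against 25.5% of all genes. Of the microglia markers C1qb was called lower and 0 higher, with 5 of 8 differences above 0. Immediate early genes, which neurons switch on after activity, summed to 694 to 741 CPM in control footprints and 2641 to 2702 CPM in KO footprints, and 12 of 12 were called higher in both assays. Their RNA sums overlapped, at 279 to 578 CPM in control and 527 to 1224 CPM in KO. Choroid plexus markers summed to 13.6 to 285 CPM in control RNA and 9.59 to 123 CPM in KO RNA, and to 15.8 to 16.1 CPM in control and 8.32 to 15.3 CPM in KO footprints, without overlap. The part of these differences in the values below was not tested, and in bulk tissue fewer cells of a type and less RNA per cell cannot be told apart. The RNA libraries of KO mice 2, 4 and 7 also stood close together, with summed cytosolic synthetase levels of 2457 to 2466 CPM against 2639 CPM in KO mouse 5. KO mouse 5 stood apart in marker sums as well: astrocyte markers were 3901 CPM against 3164 to 3203 CPM in the other KO mice, choroid plexus markers 123 against 9.59 to 13.3 CPM, and immediate early genes 527 against 1185 to 1224 CPM. Control mouse 8 stood apart from the other control mice, with 285 against 13.6 to 25.2 CPM of choroid plexus markers, 578 against 279 to 288 CPM of immediate early genes and 144 against 188 to 265 CPM of endothelium markers.

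Promoter sequence was not used to choose the genes. RefSeq promoters (250 bases before to 50 after the start, GRCm38.p6) were available for 27 of the 35 genes, 13 cytosolic and 14 mitochondrial. They were searched on both strands for TGATGNAA, the core of the C/EBP-ATF response element that ATF4 binds, whose reverse complement is TTNCATCA. The core was present in 5 of 13 cytosolic promoters (38.5%) and in 0 of 14 mitochondrial ones, against 1304 of 32851 promoters in the table (3.97%). The difference between the classes was not tested. It was also present in 7 of 22 promoters of other ATF4 target genes (31.8%). The stretches around the matches are shown because they identify the synthetases whose promoters hold the core, and the values of these genes are set beside it further on. Each is printed 5′ to 3′ on the strand of the gene, with the matching bases in capitals:
Aars, alanyl-tRNA synthetase, chr8:111033700-111033871, plus strand: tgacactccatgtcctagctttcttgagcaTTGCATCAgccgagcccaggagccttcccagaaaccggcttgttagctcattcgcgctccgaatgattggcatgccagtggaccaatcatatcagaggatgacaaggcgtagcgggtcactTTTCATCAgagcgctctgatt
Gars, glycyl-tRNA synthetase, chr6:55037941-55038008, plus strand: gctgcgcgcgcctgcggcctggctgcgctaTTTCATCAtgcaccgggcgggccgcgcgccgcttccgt
Iars, isoleucyl-tRNA synthetase, chr13:49682107-49682159, plus strand: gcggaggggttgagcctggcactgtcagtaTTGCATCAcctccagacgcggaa
Tars, threonyl-tRNA synthetase, chr15:11399636-11399703, minus strand: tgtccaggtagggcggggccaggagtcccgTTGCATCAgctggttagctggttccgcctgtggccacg
Yars, tyrosyl-tRNA synthetase, chr4:129189876-129189932, plus strand: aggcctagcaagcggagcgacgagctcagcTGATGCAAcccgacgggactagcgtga
Aars holds 2 matches and the other genes 1 each, and the matches in Gars, Iars, Tars and Yars lie within 30 bases of the start. Promoter GC content had a median of 56.0% in the cytosolic and 58.2% in the mitochondrial genes, against 52.7% over all promoters. A match describes the letters in this window and is not evidence of a bound site.

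In control cortex the cytosolic enzymes carried more footprints per RNA read than the mitochondrial ones. The control log2 ratio of footprint CPM to RNA CPM had a median of 0.20 over the cytosolic genes and of −0.33 over the mitochondrial genes, against −0.13 over the 12145 genes kept in both assays. Of the 20 cytosolic genes 17 lay above the median of all genes, and of the 15 mitochondrial genes 4 did. Alanyl-tRNA synthetase (Aars) had the highest ratio, 0.90, at percentile 91 of all genes. Its RNA level was 253, 228, 226 and 217 CPM in control mice 1, 3, 6 and 8, and its footprint level was 433, 433 and 431 CPM in control mice 1, 3 and 9. Isoleucyl-tRNA synthetase (Iars) had the lowest cytosolic ratio, −0.50, with 138, 136, 133 and 122 CPM in control RNA and 92.7, 93.1 and 94.3 CPM in control footprints. The footprint level was above every RNA value in Aars and below every RNA value in Iars. Of the mitochondrial genes, Lars2 (leucyl-tRNA synthetase) had the highest ratio, 0.62, with 15.9, 13.1, 13.8 and 13.6 CPM in control RNA and 21.3, 19.7 and 23.8 CPM in control footprints. Fars2 (phenylalanyl-tRNA synthetase) had the lowest, −1.02, with 29.8, 28.1, 32.2 and 36.5 CPM in control RNA and 15.6, 16.0 and 15.1 CPM in control footprints. The control libraries of the 2 assays did not overlap in these genes either.

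The order of the classes was the same within each of the 4 mice measured in both assays. The median log2 ratio was 0.16, 0.27, 0.18 and 0.25 over the cytosolic genes in mice 1 to 4, and −0.33, −0.23, −0.44 and −0.20 over the mitochondrial genes. It was also similar in KO libraries, at 0.21 and −0.30. The size of the ratio depended on the RNA column used. With the RNA columns whose headers end in exon, which held more reads in total, the class medians were 0.94 and 0.17 against −0.035 over all genes. In that setting 20 of 20 cytosolic and 9 of 15 mitochondrial genes lay above the median of all genes. The ratio was lower in the mitochondrial than in the cytosolic enzyme for the same amino acid in 12 of 15 pairs.

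**Figure D1:**
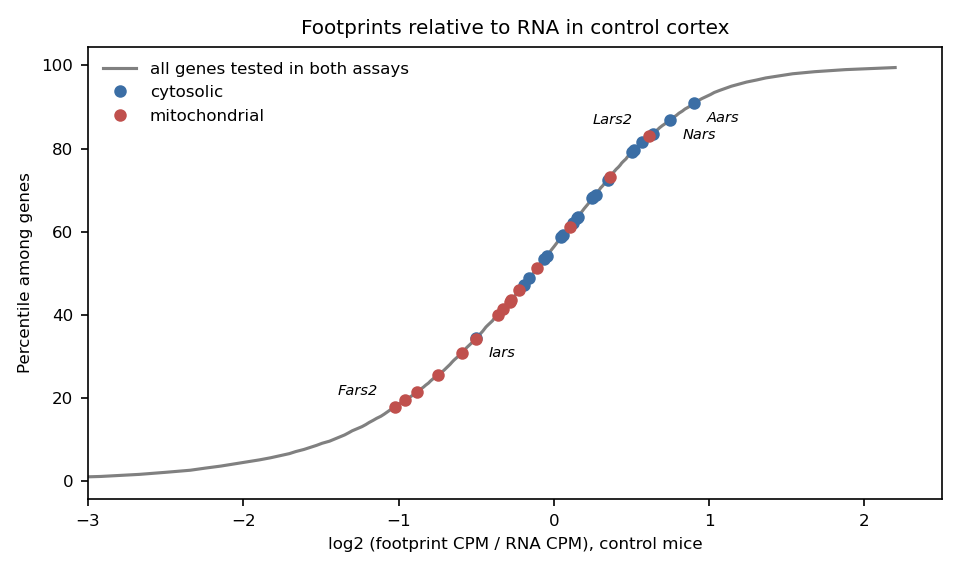
Percentile among all genes (vertical axis) against the control log2 ratio of footprint CPM to RNA CPM (horizontal axis), with 1 point per synthetase gene on the curve of all genes, blue for cytosolic and red for mitochondrial. Most blue points lie in the upper part of the curve, up to Aars at percentile 91, and most red points in the lower part, down to Fars2 at percentile 17.7.

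Summed over each class, cytosolic synthetase RNA was 2621 ± 132 CPM in control (SD, n = 4) and 2507 ± 88.3 CPM in KO (n = 4), and the groups overlapped. Mitochondrial synthetase RNA was 398 ± 7.90 CPM in control and 406 ± 5.19 CPM in KO, also overlapping. In footprints the cytosolic sum was 3252 ± 14.4 CPM in control (n = 3) and 3153 ± 18.3 CPM in KO (n = 3), and the mitochondrial sum was 298 ± 6.11 CPM in control and 323 ± 16.1 CPM in KO. Neither footprint sum overlapped between the genotypes. The lower cytosolic sum depended on the scaling: without TMM factors it was 3165 to 3191 CPM in control and 3184 to 3234 CPM in KO. The mitochondrial sum lay higher in KO under both scalings, at 284 to 297 CPM in control and 318 to 347 CPM in KO without TMM factors.

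The ratio of the cytosolic to the mitochondrial sum does not depend on the scaling. In footprints it was 11.0, 11.2 and 10.6 in control mice 1, 3 and 9, and 10.2, 9.19 and 9.99 in KO mice 2, 4 and 10. All KO values lay below all control values. In RNA it was 7.04, 6.57, 6.38 and 6.35 in control mice 1, 3, 6 and 8, and 6.03, 6.13, 6.42 and 6.13 in KO mice 2, 4, 5 and 7. Here KO mouse 5 lay among the control values and the other KO mice below them. These sums are a description and were not tested.

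**Figure D2:**
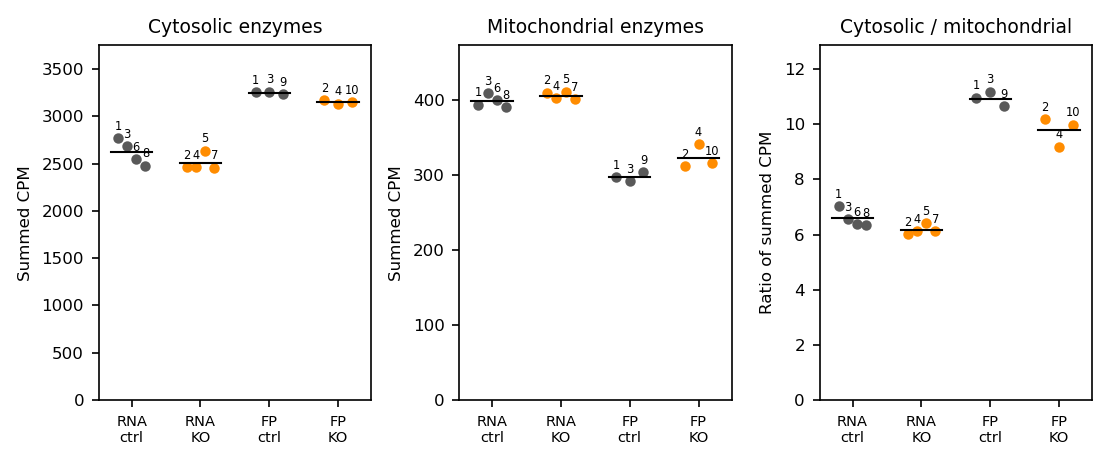
Summed CPM of the 20 cytosolic and the 15 mitochondrial synthetase genes (left and middle) and the ratio of the sums (right), with 1 numbered point per mouse in RNA and footprints (FP) and lines at the group means. The footprint ratio is 10.6 to 11.2 in the control libraries and 9.19 to 10.2 in the KO libraries.

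At the RNA level, seryl-tRNA synthetase (Sars) was the 1 synthetase gene of 35 that differed between genotypes at an adjusted p under 0.05 (edgeR's quasi-likelihood test, Benjamini-Hochberg over all genes). This is 2.86% of the members, against 7.41% of the 13507 genes tested (3.53% higher in KO, 3.88% lower). Genes past this threshold are called below. Sars RNA was 271, 266, 261 and 262 CPM in control mice 1, 3, 6 and 8, and 231, 229.6, 240.4 and 234 CPM in KO mice 2, 4, 5 and 7. All KO libraries lay below all control libraries. Its level fell by 0.18 on the log2 scale (SE 0.047, edgeR adjusted p = 0.0319). Its footprints were 316, 314 and 318 CPM in control and 303, 293 and 314 CPM in KO, a log2 difference of −0.059 that was not called (adjusted p = 0.233, edgeR).

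The Sars RNA call was lost when any of mice 1, 2, 3, 4, 6 or 7 was left out (edgeR adjusted p from 0.0621 to 0.113). It was also lost when the close RNA libraries were summed (0.471), with the prefix of the library title as a block (0.0515) and in mice 5 to 8 alone (0.553). Without control mouse 8 edgeR called 3 synthetase genes lower in RNA, Farsa, Lars and Sars, in a fit that called 13% of all genes. Without KO mouse 5 it called 2, Farsa and Sars, with 10.8% of all genes called. Without control mouse 1 it called 1 other gene, Qars, which was higher (0.26, edgeR adjusted p = 0.0467), with 3.69% of all genes called. RNA libraries of mice 1 to 4 and of mice 5 to 8 carry different title prefixes. In mice 1 to 4 alone edgeR called 10 synthetase genes, 9 lower and 1 higher, in a fit that called 24.1% of all genes. In mice 5 to 8 alone it called 0, with 2 at an unadjusted p under 0.05, in a fit that called 0.652% of all genes. Leucyl-tRNA synthetase (Lars) differed most between these subsets, with a log2 difference of −0.48 in mice 1 to 4 and 0.088 in mice 5 to 8. Glutamyl-prolyl-tRNA synthetase (Eprs), a single protein with both activities, had −0.23 and 0.053. Sars had −0.22 and −0.14.

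Some uncalled genes had RNA differences as large as that of Sars. The 19 uncalled cytosolic genes ranged from −0.22 (Farsa, a phenylalanyl-tRNA synthetase subunit, edgeR adjusted p = 0.0726) to 0.20 (Qars, glutaminyl-tRNA synthetase, 0.0822). The 15 mitochondrial genes ranged from −0.16 to 0.23, and edgeR and DESeq2 each called 0 of them. At an unadjusted p under 0.05, 8 of the 35 genes passed in edgeR, against 23.3% of all genes. The median log2 difference was −0.086 over the cytosolic genes, with 4 of 20 above 0, and 0.0019 over the mitochondrial genes, with 8 of 15 above 0. Over all genes tested it was −0.00125, with 49.8% above 0. The cytosolic median was −0.13 in mice 1 to 4 alone, with 3 of 20 genes above 0, and 0.018 in mice 5 to 8 alone, with 12 of 20 above 0. The 8 enzymes of the multisynthetase complex had a median of −0.108, and the 12 cytosolic genes outside it had one of −0.054. The groups did not overlap in 5 of 35 genes (14.3%, against 15.1% of all genes). Farsa, Mars and Sars lay lower in KO (7.97% of all genes did), and Qars and Iars2 higher (7.1%).

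**Figure D3:**
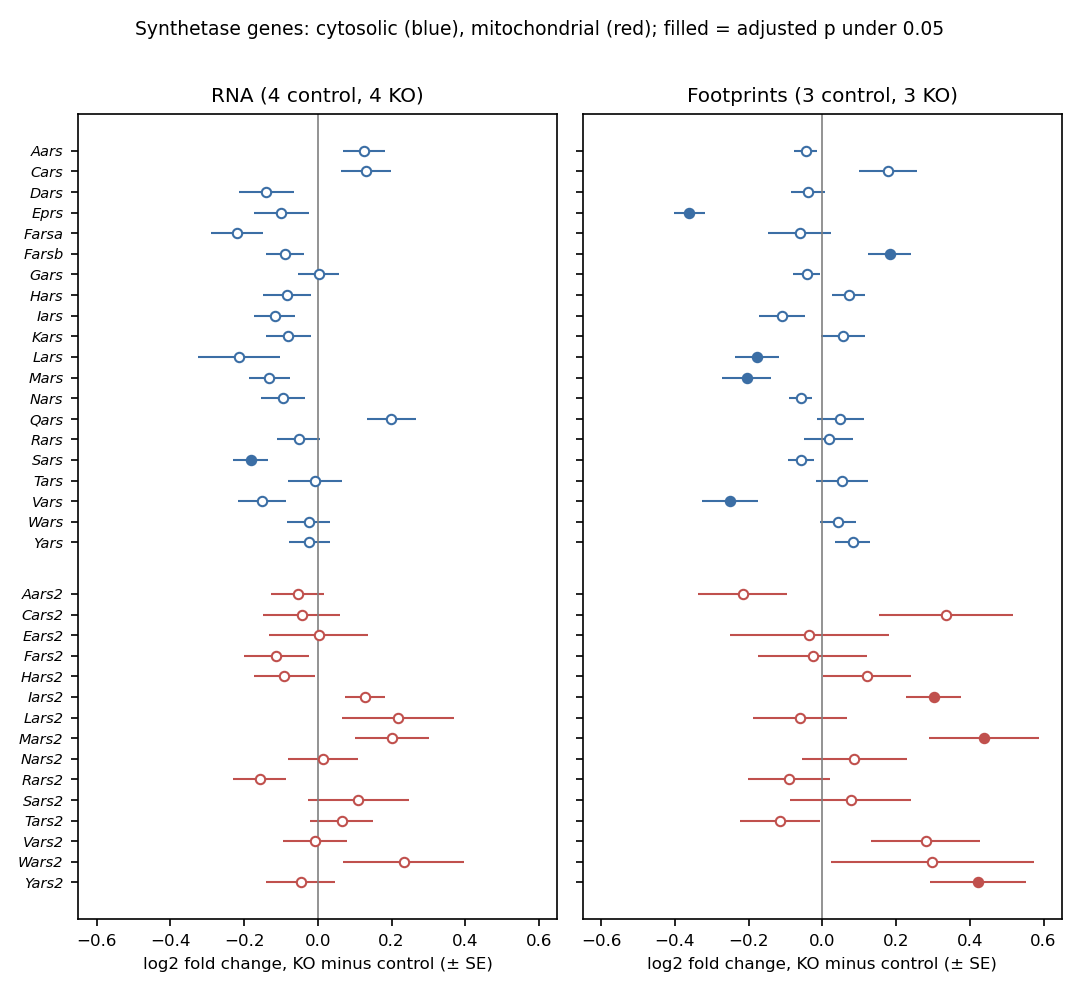
Log2 fold change (KO minus control, bars of 1 SE) of each synthetase gene in RNA (left) and footprints (right), cytosolic in blue and mitochondrial in red, with filled points where the adjusted p is under 0.05. Filled points number 1 in RNA and 8 in footprints, where the 4 on the left of 0 are all cytosolic and 3 of the 4 on the right are mitochondrial.

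In footprints edgeR called 8 of 35 genes (22.9%), against 25.5% of the 12158 genes tested (11.9% higher in KO, 13.6% lower), so the share lies near the background. Cytosolic Eprs, Vars, Mars and Lars fell. Cytosolic Farsb and mitochondrial Iars2, Yars2 and Mars2 rose. This split of 4 higher and 4 lower depended on the scaling. With plain library sizes in place of TMM factors edgeR called 9 genes, 7 higher and 2 lower, in a fit that called 28.4% of all genes. Cars, Hars and Yars (cysteinyl-, histidyl- and tyrosyl-tRNA synthetase) were then called higher, and Mars and Lars were not called. The median log2 difference was −0.041 over the cytosolic genes, with 9 of 20 above 0 and 0.087 over the mitochondrial genes, with 9 of 15 above 0. Over all genes it was 0.0055, with 50.9% above 0. Plain library sizes raised all 3 medians, to 0.019 over the cytosolic genes (14 of 20 above 0), 0.147 over the mitochondrial genes (11 of 15) and 0.065 over all genes. Among the class I enzymes, which share a Rossmann-fold catalytic domain, 7 of 19 were called (3 higher, 4 lower), and among the class II enzymes 1 of 16. Eprs, which has both glutamyl and prolyl activity, was counted in class I only. DESeq2 called 2 of 19 and 0 of 16, in a fit that called 15% of all genes. The difference between the classes was not tested. The groups did not overlap in 17 genes (48.6%, against 37.3% of all genes), with KO higher in 8 and lower in 9 (18.1% and 19.2% of all genes).

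Of the called cytosolic genes, Eprs changed most. Its footprints were 240.3, 242 and 230.2 CPM in control mice 1, 3 and 9 and 189, 179 and 187 CPM in KO mice 2, 4 and 10, so that the groups lay far apart. They fell by 0.36 on the log2 scale (SE 0.042, edgeR adjusted p = 9.69e-12), and this call was kept in all 11 alternatives run. Eprs RNA was 272, 257, 234 and 218 CPM in control and 217, 231, 254 and 216 CPM in KO. These RNA values overlapped, with a log2 difference of −0.10 (adjusted p = 0.462, edgeR). In mice 1 to 4 alone they did not overlap, at 272 and 257 CPM in control and 217 and 231 CPM in KO. There edgeR called Eprs RNA lower, in a fit that called 24.1% of all genes. In mice 5 to 8 alone, which have no footprint libraries, Eprs RNA was not called (0.652% of all genes called).

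Valyl-tRNA synthetase (Vars), which lies outside the complex, had 65.5, 63.2 and 66.6 CPM of footprints in control and 51.8, 55.9 and 56.1 CPM in KO. It fell by 0.25 (SE 0.076, edgeR adjusted p = 0.00802). Its RNA was 59.3, 60.3, 60.4 and 55.2 CPM in control and 49.7, 52.2, 55.4 and 54.4 CPM in KO, where only KO mouse 5 lay above the lowest control library. The footprint call was lost without KO mouse 2 (edgeR adjusted p = 0.0533) and with DESeq2 (0.0597).

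Methionyl-tRNA synthetase (Mars) and Lars belong, like Eprs, to the multisynthetase complex, in which 3 of 8 enzymes fell, against 13.6% of all genes. Mars footprints were 89.6, 87.0 and 97.9 CPM in control and 78.5, 84.2 and 75.8 CPM in KO, and fell by 0.21 (SE 0.066, edgeR adjusted p = 0.0124). Lars footprints were 103, 105 and 105 CPM in control and 93.7, 90.5 and 92.4 CPM in KO, and fell by 0.18 (SE 0.060, edgeR adjusted p = 0.0180). No KO library reached a control library in either gene. Mars RNA was 89.2, 82.1, 85.0 and 80.2 CPM in control and 79.5, 74.7, 77.4 and 75.8 CPM in KO. Lars RNA was 137, 139, 111 and 90.2 CPM in control and 99.1, 98.0, 115 and 99.1 CPM in KO, with a wide spread among the control libraries. The Mars call was lost without control mouse 9 (edgeR adjusted p = 0.110) or KO mouse 10 (0.0928), the Lars call without control mouse 3 (0.0525) or KO mouse 4 (0.0703). Both were lost without TMM factors (0.0852 and 0.131), with DESeq2 (0.0830 and 0.0981) and in 1 fit over all 14 libraries (0.0517 and 0.336).

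Farsb, the other subunit of phenylalanyl-tRNA synthetase, was the called cytosolic gene that rose. Its footprints were 93.9, 94.7 and 102 CPM in control and 113, 108 and 109.8 CPM in KO, higher by 0.18 (SE 0.059, edgeR adjusted p = 0.0133). Its RNA was 110.1, 107, 104 and 112 CPM in control and 98.1, 102, 103 and 105 CPM in KO, overlapping and not called. Its partner subunit Farsa had a footprint difference of −0.061. The Farsb footprint call was lost without control mouse 1 (edgeR adjusted p = 0.0530), KO mouse 2 (0.0658) or control mouse 3 (0.0762), with DESeq2 (0.0827) and in 1 fit over all libraries (0.0560). Asparaginyl-tRNA synthetase (Nars), the cytosolic gene with most RNA reads, did not pass the test. Its footprints were 457, 448 and 448 CPM in control and 435, 439 and 425 CPM in KO, and its RNA was 291, 278, 258 and 249 CPM in control and 246, 249, 266 and 247 CPM in KO. The 15 uncalled cytosolic genes ranged from −0.11 to 0.18 in footprints.

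Of the mitochondrial enzymes, 3 of 15 rose in footprints and 0 fell, which is 20% called against 25.5% of all genes (11.9% higher, 13.6% lower). Isoleucyl-tRNA synthetase (Iars2), the mitochondrial gene with most RNA reads, had 55.6, 55.1 and 59.5 CPM of footprints in control and 66.6, 75.4 and 68.0 CPM in KO. It rose by 0.30 (SE 0.075, edgeR adjusted p = 0.000955), a call kept in all 11 alternatives run. Its RNA was 91.1, 97.8, 92.8 and 98.7 CPM in control and 102, 109, 99.5 and 105 CPM in KO. The KO libraries lay above all control libraries in both assays, but the RNA difference of 0.13 was not called (edgeR adjusted p = 0.170).

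Tyrosyl-tRNA synthetase (Yars2) had 18.2, 16.0 and 20.6 CPM of footprints in control and 22.8, 28.5 and 22.0 CPM in KO, with KO mouse 4 the highest. It rose by 0.42 (SE 0.13, edgeR adjusted p = 0.00919). Its RNA was 23.0, 24.7, 23.5 and 20.5 CPM in control and 21.5, 23.7, 24.4 and 19.1 CPM in KO, which overlapped. Methionyl-tRNA synthetase (Mars2) had 12.8, 14.1 and 12.1 CPM of footprints in control and 16.4, 18.9 and 17.6 CPM in KO, and rose by 0.44 (SE 0.15, edgeR adjusted p = 0.0191). Its RNA was 19.96, 16.1, 19.7 and 17.8 CPM in control and 18.6, 23.4, 20.1 and 22.3 CPM in KO, also overlapping. The Yars2 call was lost without control mouse 3 (edgeR adjusted p = 0.103) or KO mouse 4 (0.152), and the Mars2 call without KO mouse 4 (0.0900), control mouse 9 (0.0769) or KO mouse 10 (0.0503). DESeq2 called neither (0.0761 and 0.110).

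The mitochondrial genes gave fewer reads, with control footprint means of 4.16 to 56.7 CPM against 48.0 to 451 CPM in the cytosolic genes. The median SE of their footprint difference was 0.142, against 0.059 in the cytosolic genes. The 12 uncalled mitochondrial genes ranged from −0.22 (Aars2) to 0.33 (Cars2).

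**Figure D4:**
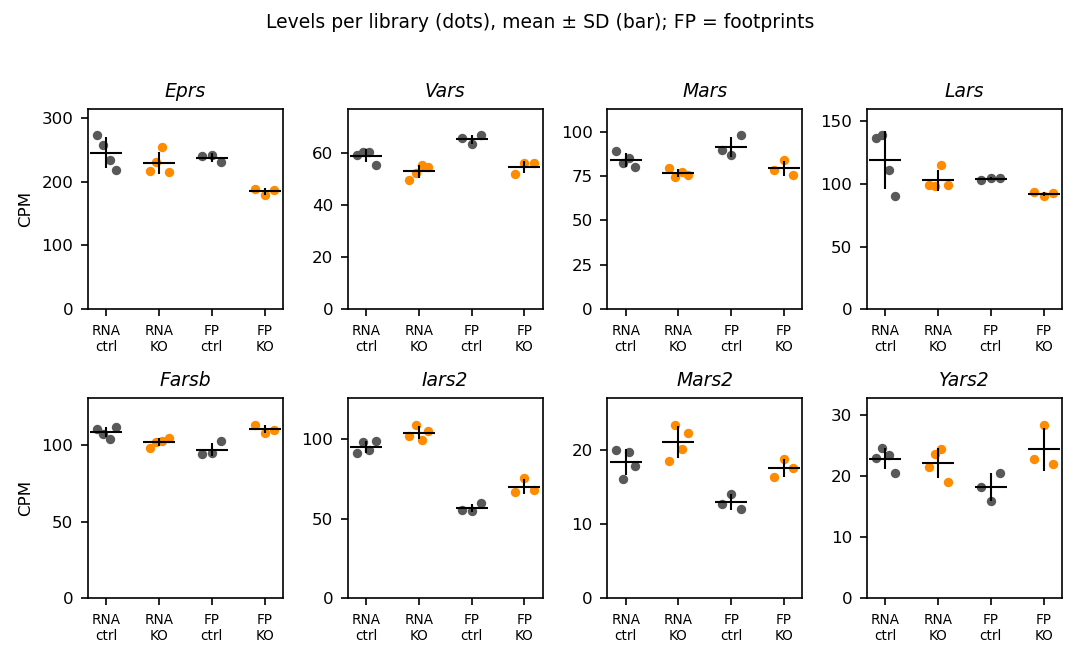
CPM in every library (points) of the 8 synthetase genes called in footprints, in RNA and footprints (FP), grey for control and orange for KO, with mean and SD as bars (n = 4 per group in RNA and 3 in footprints). Eprs footprints are 230.2 to 242 CPM in control and 179 to 189 CPM in KO. Its RNA values overlap over all mice, but not in mice 1 to 4 alone.

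Set side by side with the cytosolic enzyme for the same amino acid, the mitochondrial enzyme had the higher footprint difference in 12 of 15 pairs. The corresponding counts were 10 in RNA and 9 in the ratio of footprints to RNA. Ears2 was set against Eprs and Fars2 against Farsa, and with Farsb as the partner of Fars2 the counts were 11 in footprints, 9 in RNA and 9 in the ratio. The methionine pair differed in sign, with −0.21 in Mars and 0.44 in Mars2, as did the valine pair, with −0.25 in Vars and 0.28 in Vars2. The isoleucine pair had −0.11 in Iars and 0.30 in Iars2, and the tyrosine pair 0.082 in Yars and 0.42 in Yars2. In the leucine pair both were below 0, with −0.18 in Lars and −0.061 in Lars2. Vars2, Iars, Yars and Lars2 were not called, and the pairs share their libraries and were not tested as pairs.

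Footprints relative to RNA (translational efficiency, TE) differed between the genotypes in 1 of 35 synthetase genes (2.86%), against 7.81% of the 12145 genes tested (3.4% higher in KO, 4.41% lower). Farsb rose by 0.26 on the log2 scale (SE 0.078, edgeR interaction test, adjusted p = 0.0397), with its RNA lower and its footprints higher in KO. This call was lost without mouse 1, 2, 3, 4, 7 or 10 (edgeR adjusted p from 0.0504 to 0.172), with the close RNA libraries summed (0.131) and without the filter on low counts (0.0628). In the paired design of mice 1 to 4, with the mouse as a replicate block, edgeR called 5 synthetase genes, all higher: Farsb (0.33, adjusted p = 0.00638), Dars (0.25, 0.0237), Hars (0.23, 0.0226), Lars (0.29, 0.0182) and Yars2 (0.66, 0.00587). That fit called 15.3% of all genes, so the 5 of 35 lie near its background. The same 5 genes were called in these mice without the block, where 14.8% of all genes were called, so the count did not depend on the block. The rise from 1 to 5 also goes with fewer libraries and fewer title prefixes, and its cause was not tested. Dars, Hars and Yars2 encode the aspartyl-, histidyl- and mitochondrial tyrosyl-tRNA synthetases.

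Of the genes called in footprints, Eprs had the most negative TE difference, −0.27 (SE 0.098, edgeR adjusted p = 0.0945), and Yars2 the most positive, 0.46 (SE 0.17, adjusted p = 0.100). Iars2 had 0.17, Mars2 0.23, Lars 0.030, Mars −0.081 and Vars −0.11, and none of these passed the test. The median TE difference was 0.045 over the cytosolic genes, with 13 of 20 above 0, and 0.067 over the mitochondrial genes, with 10 of 15 above 0. Over all genes it was −0.011, with 48.2% above 0.

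The 5 genes with the stress-response core in the promoter, Aars, Gars, Iars, Tars and Yars, were called in none of the 3 main tests. Those tests called 7.41% of all genes in RNA, 25.5% in footprints and 7.81% in TE. A count over 5 genes cannot show whether genes with the core are called less often. Among the alternatives, Yars was called higher in footprints with plain library sizes (0.14, edgeR adjusted p = 0.0158) and Iars lower in RNA in mice 1 to 4 alone (−0.16, 0.0208). Their differences ranged from −0.12 to 0.13 in RNA (lowest edgeR adjusted p = 0.204), from −0.11 to 0.082 in footprints (0.205) and from −0.18 to 0.099 in TE (0.146). Aars had 249, 246, 264 and 248 CPM in KO RNA and 428, 418 and 412 CPM in KO footprints, and Iars had 124, 119.6, 126 and 119 CPM and 88.0, 82.8 and 89.0 CPM. Of the 9 synthetases called in any main test, 7 have a promoter in the table and 0 of these hold the core. Among all 27 members with a promoter 5 hold it. The 7 include mitochondrial genes, a class in which 0 of 14 promoters hold it. Of 25 other ATF4 target genes, 23 passed the filter on low counts in RNA and 21 in footprints. In RNA edgeR called 0 of 23 (7.41% of all genes), with 4 at an unadjusted p under 0.05 (23.3% of all genes), and DESeq2 called 1 (8.47% of all genes).

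In footprints 2 of 21 ATF4 targets rose and 3 fell, which is 23.8% called against 25.5% of all genes. Asns, asparagine synthetase, rose by 0.15 (SE 0.040, edgeR adjusted p = 0.00162), and Ddit4, an mTORC1 inhibitor, by 0.39 (SE 0.075, adjusted p = 1.29e-05). Shmt2, the mitochondrial serine hydroxymethyltransferase, fell by 0.40 (SE 0.10, edgeR adjusted p = 0.00123). Vldlr, a lipoprotein and reelin receptor, fell by 0.17 and Aldh18a1, an enzyme of proline synthesis, by 0.23 (edgeR adjusted p = 0.0160 and 0.0316). Asns footprints were 214, 222 and 213 CPM in control and 244, 242 and 237 CPM in KO, which do not overlap. The Vldlr call was lost without control mouse 9 (edgeR adjusted p = 0.0705) or KO mouse 10 (0.0549), and the Aldh18a1 call without KO mouse 2 (0.0654), KO mouse 4 (0.140) or control mouse 9 (0.119). With plain library sizes and with DESeq2 both were lost (0.131 and 0.0928 for Vldlr, 0.122 and 0.145 for Aldh18a1). In 1 fit over all libraries Vldlr (0.0978) and Asns (0.0592) were lost. DESeq2 called 3 of 21 ATF4 targets in footprints, in a fit that called 15% of all genes. In TE edgeR (7.81% of all genes called) and DESeq2 (8.3%) each called 0 of 21. At an unadjusted p under 0.05, 4 of 21 passed in both, against 23.1% of all genes in edgeR. The median log2 difference of the tested targets was −0.038 in RNA, −0.17 in footprints and −0.069 in TE.

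Among the scaffold proteins of the complex, Eef1e1 fell in RNA by 0.38 (SE 0.10, edgeR adjusted p = 0.0405), from 32.5 ± 4.86 CPM in control to 25.1 ± 2.31 CPM in KO (SD, n = 4 each). The other scaffold genes, Aimp1 and Aimp2, had RNA differences of −0.15 and −0.027 (edgeR adjusted p = 0.329 and 0.898), so 1 of 3 was called, against 7.41% of all genes. The footprint difference of Eef1e1 was 0.032 and its TE difference 0.40 (edgeR adjusted p = 0.0920). Its RNA call was kept in 7 of 16 alternatives and lost without any of mice 1, 2, 4, 6, 7 or 8 (edgeR adjusted p from 0.0530 to 0.134), with the close RNA libraries summed (0.312), in mice 5 to 8 alone (0.155) and with the exon columns (0.113). Of 14 related genes of tRNA charging and editing, 1 was called in footprints and in TE, Lrrc47, whose product resembles a phenylalanyl-tRNA synthetase subunit. This is 7.14% in each test, against 25.5% and 7.81% of all genes. Its footprints were 55.3, 56.8 and 55.8 CPM in control and 44.7, 47.1 and 47.2 CPM in KO. They fell by 0.27 (SE 0.082, edgeR adjusted p = 0.00753), and its TE fell by 0.40 (SE 0.11, adjusted p = 0.0355), a call kept in 5 of 17 alternatives. It was lost without any of mice 2, 3, 4, 6, 7, 9 or 10 (edgeR adjusted p from 0.0546 to 0.162), with plain library sizes (0.0688), with the exon columns (0.210), with RNA libraries summed (0.0516), in mice 1 to 4 without a block (0.124) and with the mouse as a replicate block in those mice (0.113). Its footprint call was lost with DESeq2 (0.0592).

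Some synthetase genes overlap another protein-coding gene in RefSeq, and the strand setting of the counting is not given in the sources used here. Among the called genes this concerns Mars with Ddit3, Farsb with Sgpp2 and Iars2 with Rab3gap2. It also concerns Hars with Hars2, Aars with Ddx19b, Wars with Wdr25 and Rars2 with Orc3. Reads from the shared stretches cannot be assigned from these counts alone.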

How the data were processed

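RNA-seq (8 libraries) and ribosome profiling (6) were analysed. The authors deposited whole-number counts per gene, not normalized. Per the labels' protocols, footprints came from monosomes of RNase I-digested lysates on a sucrose gradient, and RNA was depleted of ribosomal RNA. Per the submitters' processing notes, Bowtie2, STAR 2.5, featureCounts and Subread 1.4.6 were used, and builds mm9 and mm10 are named with no role. The region counted is not given in the sources used here. RNA columns without a suffix, which held 52.9% to 56.7% of the exon columns' totals, were used because 2849 genes have no value in them or in footprints.

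Counts were tested with edgeR 4.0.16 (quasi-likelihood, TMM, filterByExpr at a minimum count of 10, R 4.3.3), two-sided, in RNA, in footprints and, as the interaction of genotype and assay, in all 14 libraries. P-values were Benjamini-Hochberg adjusted over all genes tested, with a threshold of 0.05. The replicates are separate mice by their labels. CPM used TMM factors, and PCR copies are not independent molecules. The scripts were tested on simulated data. Alternatives were plain library sizes, DESeq2 1.42.0, no filter, each mouse left out, exon columns, blocks and subsets of mice.

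Mice 1 to 4 are in both assays by their labels, so the mouse number pairs those libraries. Deviations of the paired libraries from their group means correlated at 0.0028, 0.011, 0.035 and −0.012. These values do not themselves back the pairing, which rests on the labels alone.

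Values per library are given for the 6 called genes with the smallest adjusted p per test, the genes with most RNA reads and the extremes of the control ratio in each class. Lars, Mars2, Asns and Lrrc47 were given per library after their values were seen. The members and lists were chosen with earlier results of these data known. Levels per coding length, length correlations and protein identity were not computed.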

Additional observations from a re-analysis of the deposited data

Results flagged for a closer look

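In 9 of 74 groups of 4 RNA libraries examined, 1 library lay apart from the other 3 by more than Dixon's 95% critical value of 0.829 for the gap over the range. Chance gives about 1 in 20 groups, and these groups share their libraries. In 8 of the 9 the distant library was KO mouse 5, which lay above KO mice 2, 4 and 7. The same library had 3901 CPM of astrocyte markers against 3164 to 3203 CPM in the other KO mice. Endothelium markers were 162 against 254 to 262 CPM, choroid plexus markers 123 against 9.59 to 13.3 CPM and immediate early genes 527 against 1185 to 1224 CPM. Their part in the values below was not tested.

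The summed level of the cytosolic synthetases was 2639 CPM in KO mouse 5 and 2457 to 2466 CPM in the other KO mice (gap over range 0.949). Dars had 113 CPM against 100.7 to 101 (0.941), Lars 115 against 98.0 to 99.1 (0.931), and Aars2, the mitochondrial member of this set, 31.0 against 28.4 to 28.6 (0.912). Nars had 266 CPM against 246 to 249 (0.878), and Tars 60.1 against 54.0 to 55.0 (0.844). Farsa had 37.7 CPM against 32.5 to 33.4 (0.836), and Aars 264 against 246 to 249 (0.835). In control RNA, Tars was 49.0 CPM in mouse 6 and 58.1 to 58.6 CPM in the others (0.943).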

How the results depend on the processing

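All 10 calls of the main tests kept their sign in every alternative run, and the calls lost are given beside each gene above. In RNA the count of 1 called gene ranged from 0 to 3 with 1 mouse left out (without control mouse 1 the called gene was Qars, higher). Blocking on the title prefix gave 0 (6 at an unadjusted p under 0.05). The count was 0 with the close RNA libraries summed (1 unadjusted), 0 in mice 5 to 8 alone and 10 in mice 1 to 4 alone. These fits called 0.263%, 0.652% and 24.1% of all genes. The fit with the title prefix as a block called 7.09%, and those with 1 mouse left out 2.62% to 13%. In footprints the count of 8 (4 higher, 4 lower) was 9 with plain library sizes (7 higher, 2 lower, with 28.4% of all genes called). It was 2 with DESeq2 (Eprs and Iars2) and 5 in 1 fit over all libraries (15% and 13.9% of all genes called, against 25.5%). With 1 mouse left out it was 5 to 7 (5 without control mouse 3 and without KO mouse 4). Those fits called 20.7% to 23.3% of all genes. In TE the count of 1 was 0 without the filter and 0 with RNA libraries summed (4 unadjusted in each), and 0 to 2 with 1 mouse left out. Those fits called 5.32%, 4.77% and 3.4% to 10.6% of all genes, against 7.81% in the main fit. The TE count was 5 in mice 1 to 4 alone, both without the block (14.8% of all genes called) and with the mouse as a replicate block (15.3%).

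The mitochondrial minus cytosolic median log2 difference was 0.088 in RNA (0.046 to 0.126 with 1 mouse left out, 0.0086 in mice 5 to 8 alone). It was 0.128 in footprints (0.0913 to 0.169) and 0.022 in TE (0.00094 to 0.110). The cause of these changes was not tested. The median SE of the footprint difference was 0.142 in the mitochondrial genes, which had fewer reads, and 0.059 in the cytosolic genes.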
